A study of Mus musculus with 2 samples.

Results

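The transcription factors followed here in the lung endothelium belong to the SOX and ETS families. They are 9 of the 31053 genes in the count tables and were chosen by name, with earlier results of these data known. Sox7, Sox17 and Sox18 form the SoxF group, and Sox11 belongs to the SoxC group. The ETS factors are Erg, Fli1, Ets1, Ets2 and Elk3. Their levels were read in 4 classes of endothelial cells, which were set by marker genes other than the 9.

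The study asked how the lung endothelium responds in the first hours after melanoma cells reach it. WT mice of the C57BL/6 strain, males of 8 to 10 weeks according to the methods, received either PBS (control) or 200000 B16-F10 cells per mouse (metastatic) through the tail vein. B16-F10 is a line grown from a mouse skin melanoma, and its cells had been labeled with a green dye. The lungs were taken after 6 h, digested, and sorted for PECAM1, an endothelial surface protein that platelets and some leukocytes also carry. The libraries were made with a droplet kit that reads the 3′ end of each RNA and counts unique molecular identifiers (UMIs). Each group is 1 library of 2 pooled mice, so no value could be set against a spread between animals. All intervals below are at 95% and cover counting error only.

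SOX proteins bind DNA through a high mobility group domain that recognizes short ACAA-containing sites and bends the helix. The SoxF factors are found in endothelial cells of the embryo and adult, where they act in the formation of arteries and lymphatic vessels and partly replace each other. ETS proteins share a DNA-binding domain for sites built around GGAA, and such sites are found in the enhancers of nearly all genes that mark endothelial cells. Erg and Fli1 are close relatives that maintain endothelial identity, Ets1 and Ets2 are targets of MAP kinase signaling, and Elk3 is a ternary complex factor, a partner of serum response factor that represses target genes until it is phosphorylated.

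In GENCODE M21 on the GRCm38 assembly (mm10), 4 of the ETS genes lie in neighboring pairs. Fli1 (chr9:32422204-32542861, minus strand) and Ets1 (chr9:32636221-32757820, plus strand) are 93.4 kb apart, and Erg (chr16:95359169-95586593, minus strand) and Ets2 (chr16:95702075-95721051, plus strand) are 115 kb apart, with 0 protein-coding genes between the members of either pair. Elk3 lies at chr10:93247414-93311135 on the minus strand, and Sox11 lies at chr12:27334264-27342574 on the minus strand. Sox7 (chr14:63943673-63950732, plus strand), Sox17 (chr1:4490931-4497354, minus strand) and Sox18 (chr2:181669836-181671640, minus strand) are short genes on separate chromosomes. An exon of Elk3 overlaps Cdk17, a kinase gene on the other strand, and the sources used here do not state how strand was used in counting. Cdk17 held 59.0 CPM in control and 66.5 CPM in metastatic general capillary cells.

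RefSeq promoter windows on GRCm38.p6, from 250 bases before to 50 bases after the transcript start, were found for 4 of the 9 genes (Sox11, Erg, Ets2 and Elk3). Those of Sox11 and Elk3, which were both higher in the metastatic capillary cells, are shown with that of Ets2, which was not. The RefSeq and GENCODE starts differ, so the Sox11 window lies wholly upstream of the gene span above and the Ets2 window wholly within it. Capitals mark the ETS core GGAA on either strand (TTCC on the strand shown).
Sox11 promoter, chr12:27342669-27342968, minus strand: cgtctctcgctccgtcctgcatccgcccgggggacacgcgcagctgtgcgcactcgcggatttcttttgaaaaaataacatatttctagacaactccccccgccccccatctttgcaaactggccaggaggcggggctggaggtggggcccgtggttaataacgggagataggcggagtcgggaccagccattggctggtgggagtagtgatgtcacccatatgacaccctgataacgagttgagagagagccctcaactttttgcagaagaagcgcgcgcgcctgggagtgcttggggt
Elk3 promoter, chr10:93311110-93311409, minus strand: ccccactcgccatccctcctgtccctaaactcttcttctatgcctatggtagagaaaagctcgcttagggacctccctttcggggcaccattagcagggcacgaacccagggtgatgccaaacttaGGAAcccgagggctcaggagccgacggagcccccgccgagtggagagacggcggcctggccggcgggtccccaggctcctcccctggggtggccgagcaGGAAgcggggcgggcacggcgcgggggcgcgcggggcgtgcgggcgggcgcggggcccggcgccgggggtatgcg
Ets2 promoter, chr16:95702157-95702456, plus strand: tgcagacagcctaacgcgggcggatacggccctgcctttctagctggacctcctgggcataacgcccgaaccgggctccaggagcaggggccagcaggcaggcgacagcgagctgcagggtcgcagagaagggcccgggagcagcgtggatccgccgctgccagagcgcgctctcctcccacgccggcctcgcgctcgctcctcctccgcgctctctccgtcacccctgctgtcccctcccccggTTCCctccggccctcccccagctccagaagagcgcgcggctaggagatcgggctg
The core was present 0 times in the Sox11 window, 2 times in the Elk3 window and 1 time in the Ets2 window. Among 32817 promoter windows of the same length, 96.0% held it, with a median of 3. The Erg gene has 3 such windows, with 1, 2 and 4 cores. The longer ETS site CGGAAG, searched on both strands and holding the core within it, was in none of these windows and in 16.9% of all windows. The SOX site ACAANG was in 1 Erg window and in 41.3% of all windows, and TATAAA was in another Erg window and in 13.6% of all. The windows of Elk3, Ets2 and Sox11 held 31, 30 and 21 CG dinucleotides, against a median of 7. A match, or its absence, describes these letters only.

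Cells were barcodes in which 1000 to 5000 genes were detected and mitochondrial genes took less than 20% of the UMIs, 7134 in the control and 6466 in the metastatic library, with medians of 6272.5 and 6526.5 UMIs. Cells were assigned to a class when at least 2 of its markers were detected (aerocyte: Ednrb, Fibin, Tbx2; vein: Slc6a2, Car8, Bst1; artery: Gja5, Bmx, Fbln5). General capillary cells held at least 2 of Gpihbp1, Aplnr, Kit and Lpl and reached none of the other classes. The names rest on these markers alone. This gave 5020 control and 4519 metastatic general capillary cells, 1364 and 1086 aerocytes, 63 and 59 artery cells, and 247 and 304 vein cells. At least 2 of 5 endothelial markers (Pecam1, Cdh5, Cldn5, Tie1, Egfl7) were detected in 98.7% to 100% of the cells of each class. The artery class stands closest to its limit, since 81.0% of its control and 91.5% of its metastatic cells held exactly 2 markers, against 15.3% and 16.6% of general capillary cells. The summed level of the 3 artery markers was 698 and 557 CPM in artery cells and at most 150.2 CPM in the other 3 classes. At least 2 general capillary markers were also detected in 81.0% of control and 62.7% of metastatic artery cells. In aerocytes and vein cells these shares were 54.3% to 59.9%. 16 barcodes were called as cells in both libraries.

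Markers of other cells moved with the groups. The 5 erythroid genes summed to 1959 CPM in control and 824 CPM in metastatic general capillary cells, with 67.1% and 41.6% of cells holding at least 2 of them. For the 4 platelet genes the sums were 175 and 271 CPM. The 6 epithelial genes summed to 1689 and 993 CPM, and the 8 melanoma genes to 4.86 and 7.76 CPM. Myeloid genes summed to 362 and 244 CPM, lymphoid genes to 14.1 and 26.5 CPM, and mesenchymal genes to 14.4 and 21.9 CPM. The general capillary markers themselves summed to 3657 and 3162 CPM. Without cells that held at least 2 lymphoid, myeloid, platelet, epithelial, mesenchymal or melanoma markers, the metastatic over control log2 ratios below were 0.56 for Sox11, 0.43 for Sox17 and 0.35 for Elk3 in general capillary cells. The part of the erythroid RNA and of the general capillary markers was not tested.

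The metastatic general capillary cells carried more RNA of Sox11, Sox17 and Elk3 than the control cells. Levels are UMIs of a gene summed over the cells of a class, per 1000000 UMIs of that class (CPM). A gene was called higher or lower when the log2 CPM ratio of the libraries was at or beyond a limit of 0.322 in that direction, with at least 100 UMIs over both libraries. By this rule 3 of 9 members were higher, against 10.5% of 11220 genes measured, and 0 were lower, against 5.87%. The median log2 ratio was 0.24 for the members and 0.02 for all genes.

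Sox11 differed most. It stood at 151 CPM (147–156) in control cells and 226 CPM (221–232) in metastatic cells, a log2 ratio of 0.58 (0.53 to 0.63). Sox17, a SoxF factor of arterial endothelium, held 206 CPM (201–211) and 275 CPM (269–281), a log2 ratio of 0.42 (0.37 to 0.47). In both genes the counting intervals of the libraries were far apart.

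The other SoxF genes stayed within the limit. Sox7 stood at 124 and 146 CPM, a log2 ratio of 0.24 (0.17 to 0.30), in the direction of Sox17. Sox18 stood at 199.6 and 179 CPM, a log2 ratio of -0.16 (-0.21 to -0.10).

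Among the ETS members, Elk3 held 176 CPM (172–181) and 223 CPM (218–228), a log2 ratio of 0.34 (0.29 to 0.39). This lies at the limit of the rule, and Elk3 fell short of it with trimmed mean scaling, with median-of-ratios scaling and with free RNA subtracted, where its ratio was lowest at 0.303. Ets1 followed with 399 and 479 CPM, a log2 ratio of 0.26 (0.23 to 0.30), and Fli1 with 95.8 and 107 CPM, 0.16 (0.09 to 0.23). Erg was level, at 89.2 and 89.7 CPM, with a log2 ratio of 0.01 (-0.07 to 0.08). Ets2 held 405 and 368.5 CPM, -0.14 (-0.17 to -0.10). The ratios of the close relatives Ets1 and Ets2 thus lay on different sides of 0, as did those of Sox17 and Sox18, all within the limit except Sox17.

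**Figure D1:**
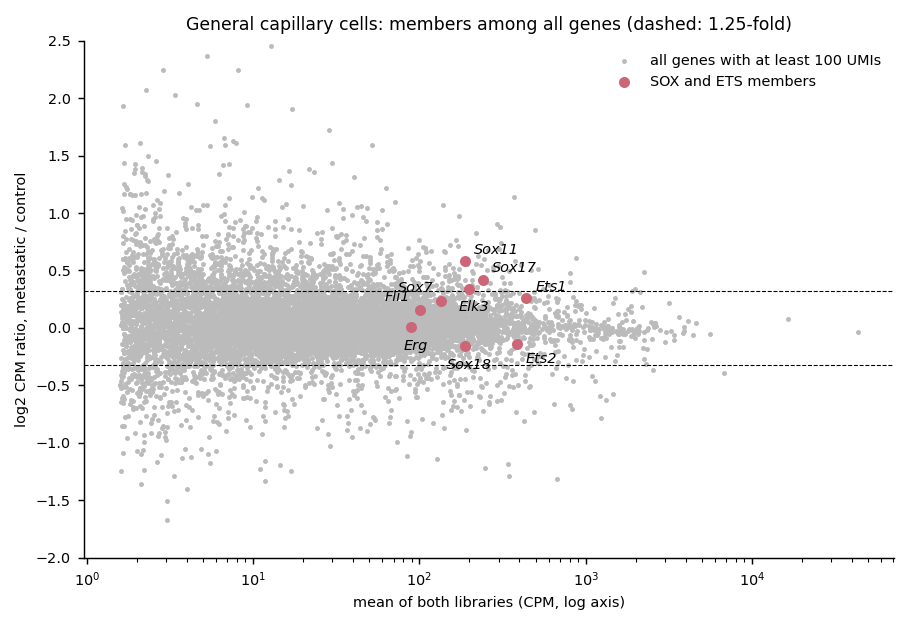
Each point is a gene with at least 100 UMIs in general capillary cells: its mean level (CPM, log axis) against the log2 ratio of the metastatic to the control library, with the 9 members named and dashed lines at the limit of 0.322 either way. Sox11 (0.58) and Sox17 (0.42) stand clearly above the upper line and Elk3 (0.34) just above it, Erg (0.01) lies at the center, and 13 genes lie beyond the vertical axis.

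The share of general capillary cells with a UMI moved with these levels. Each cell was first thinned to 2000 UMIs, which left out 73 control and 58 metastatic cells that were shallower. Sox11 was then found in 22.8% (21.6–24.0) of 4947 control cells and 31.7% (30.3–33.1) of 4461 metastatic cells, and in the cells that held it the mean was 1.36 and 1.46 UMIs. Sox17 was found in 29.2% (28.0–30.5) and 36.5% (35.1–38.0). For Elk3 the shares were 28.6% and 35.2%.

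The share was lower in the metastatic library for Sox18 (31.0% and 28.8%) and Ets2 (52.8% and 48.8%) and higher for the other members. How often it was higher over all genes is not given. Sox7 was found in 21.2% and 24.3% of cells, and Ets1 in 51.8% and 56.3%. The intervals of the libraries overlapped for Fli1 (16.7% and 18.3%, with bounds of 17.8% and 17.2%) and Erg (15.9% and 16.2%), and for Sox18, where the lower bound was 29.7% in the control and the upper bound 30.1% in the metastatic library. Without thinning, the shares were 44.4% and 55.5% for Sox11, 56.8% and 65.8% for Sox17, and 60.9% and 69.0% for Elk3.

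Lymphoid and epithelial cells were read as a background. They held at least 2 markers of their type and fewer than 2 endothelial markers. That choice leaves out barcodes with more endothelial RNA, so the shares can understate what free RNA in the droplets adds. Lymphoid cells (46 control and 48 metastatic, median depths 4743.5 and 4722.5 UMIs, against 5990 and 6314 in general capillary cells) held Sox11 in 2.17% and 0% of cells, and Sox17 in 0% and 2.08%. A count of 0, by a limit of 3 cells, allows a share of up to 6.52% in the control and 6.25% in the metastatic lymphoid cells, and the Clopper-Pearson intervals reach 7.71% and 7.397%. In epithelial cells (30 and 32, median depths 13951.5 and 14392.5 UMIs) Sox7, Sox17 and Sox11 were found in 0 cells, which allows up to 10.0% and 9.38% by the same limit, with intervals up to 11.6% and 10.9%. Erg was found in 0 lymphoid cells of either library.

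Fli1, Ets1, Ets2 and Elk3 were also found in other cells. Ets1, which is known to act in lymphocytes, was found in 73.9% (58.9–85.7) and 70.8% (55.9–83.0) of lymphoid cells, and the interval overlapped that of general capillary cells in the metastatic library. Fli1 was found in 23.9% and 16.7% of lymphoid and 16.7% and 9.38% of epithelial cells. Ets2 was found in 23.3% and 18.8% of epithelial cells. For Elk3 the shares were 4.35% and 8.33% of lymphoid and 3.33% and 9.38% of epithelial cells.

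**Figure D2:**
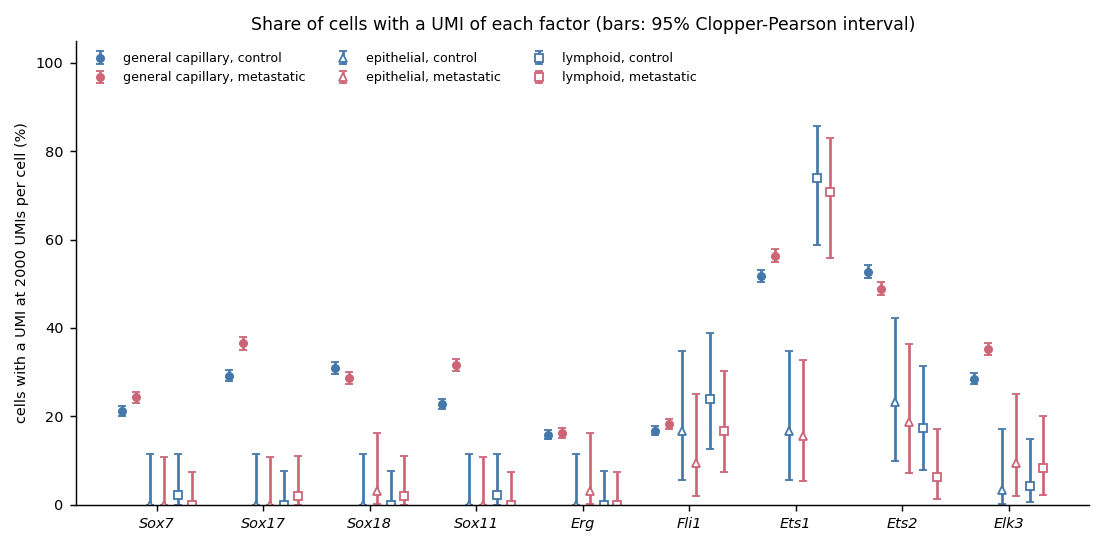
Share of cells (%) with at least 1 UMI of each factor after thinning to 2000 UMIs per cell, in general capillary (filled), epithelial (open triangles) and lymphoid cells (open squares) of each library, with 95% Clopper-Pearson intervals. Sox11 and Sox17 reach 31.7% and 36.5% in metastatic general capillary cells and at most 2.17% in lymphoid cells, while Ets1 reaches 73.9% in control lymphoid cells.

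Factors found in the same cells gave small differences. Among metastatic general capillary cells with a Sox11 UMI at 2000 UMIs, 41.0% (38.4–43.6) also held Sox17, against 34.4% (32.8–36.2) of those without, while in the control library the shares were 31.3% (28.6–34.1) and 28.6% (27.2–30.1). Sox7 and Sox17 behaved likewise, with 40.6% against 35.2% in the metastatic and 32.9% against 28.2% in the control library. For Sox18 and Sox17 the direction was the other one, at 33.3% against 37.8% and 27.8% against 29.9%. There the intervals overlapped in the control library, as they did for Sox11. Erg and Fli1 gave 19.1% against 18.1% and 17.7% against 16.6%, with overlapping intervals in each library.

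In aerocytes, the wide thin capillary cells of gas exchange, more members differed between the libraries. 6 of 9 were higher in the metastatic library, against 9.50% of 9504 genes, and 0 were lower, against 5.15%. With trimmed mean scaling, for which no share of all genes is given, 4 were higher, since Sox18 (0.30) and Fli1 (0.31) then fell short. The members' median log2 ratio was 0.35, and that of all genes 0.03. Sox11 held 62.8 and 104 CPM, a log2 ratio of 0.73 (0.59 to 0.87). Sox17 held 69.8 and 102 CPM, 0.55 (0.41 to 0.68), but 0.28, within the limit, with classes set at 2000 UMIs and 0.77 with doublets left out. Sox7 (73.2 and 94.5 CPM), Elk3 (102 and 133 CPM), Fli1 (59.7 and 76.3 CPM) and Sox18 had log2 ratios between 0.35 and 0.38. Markers of other cells moved in aerocytes too, with epithelial genes at 632 CPM in control and 91.6 CPM in metastatic cells, erythroid genes at 1295 and 847 CPM, and platelet genes at 76.5 and 157 CPM. The 3 aerocyte markers summed to 2997 and 2435 CPM. Without cells that held other cell types' markers Sox11 stood at 0.71 and Sox17 at 0.55, and the part of the erythroid RNA and the aerocyte markers was not tested.

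The ratio of Sox18 lay on different sides of 0 in the capillary classes, with counting intervals apart. Sox18 was higher in metastatic aerocytes, at 144 CPM (137–151) against 183 CPM (174–192), a log2 ratio of 0.35 (0.25 to 0.45), while its -0.16 in general capillary cells was within the limit. Its ratio stayed between 0.30 and 0.37 in aerocytes and between -0.22 and -0.14 in general capillary cells over the 16 alternatives. Whether the classes differ beyond the variation of mice was not tested. Erg (59.9 and 58.8 CPM) and Ets2 (350.01 and 334 CPM) differed little in aerocytes, with log2 ratios of -0.03 and -0.07.

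In vein cells 1 of 9 members was higher, against 12.0% of 6260 genes, and 0 were lower, against 10.5%. That member was Sox11, at 76.2 CPM (65.1–88.6) in control veins and 108 CPM (96.3–122) in metastatic veins, a log2 ratio of 0.51 (0.23 to 0.79). Elk3 held 189.9 and 228 CPM, 0.27 (0.08 to 0.45). Ets1 and Fli1 had ratios above 0 in both capillary classes and below 0 in veins, where neither reached the limit. Ets1 held 279 and 228 CPM, -0.29 (-0.46 to -0.13), and Fli1 held 176 and 149 CPM, -0.24 (-0.45 to -0.04), or -0.09 with classes at 2000 UMIs. The 3 SoxF genes stayed between -0.06 and -0.05. The metastatic vein class also held more RNA of other cells, with 6 epithelial genes at 3657 CPM against 125 CPM and 6 myeloid genes at 628 CPM against 38.5 CPM. Its cells with fewer than 2 endothelial markers were 4 of 304. Without cells that held at least 2 markers of another cell type, 2 members were higher, and Sox11 stood at 0.48. No share of all genes is given for that setting.

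Artery cells were few, and 6 of 9 members reached 100 UMIs over both libraries. Of these 2 were higher in the metastatic library, against 16.8% of 1827 genes, and 0 were lower, against 13.4%. Sox17 rested on 67 and 97 UMIs (136 and 199.4 CPM), a log2 ratio of 0.55 (0.09 to 1.02). Elk3 rested on 69 and 97 UMIs (139.9 and 199.4 CPM), 0.51 (0.05 to 0.98). Both turned direction when the classes were set on cells thinned to 2000 UMIs, which left 21 and 14 artery cells, to -0.78 for Sox17 and -0.24 for Elk3. Sox11 had 7 and 16 UMIs, and its ratio of 2.32-fold had an interval of -0.15 to 2.74 on the log2 scale. Lymphatic markers summed to 44.6 CPM in control and 1552 CPM in metastatic artery cells, where 2 of 59 cells held at least 2 of them.

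**Figure D3:**
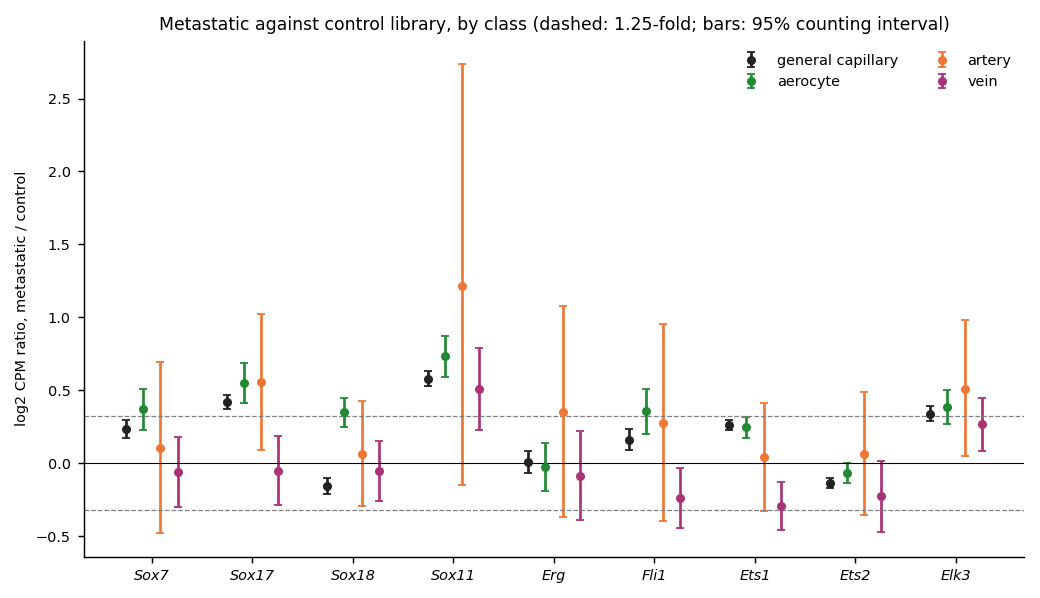
log2 CPM ratio of the metastatic to the control library for each factor in the 4 classes, with 95% counting intervals and dashed lines at the limit of 0.322 either way. Sox11 lies above 0 in every class (0.58, 0.73, 1.21 and 0.51 in general capillary, aerocyte, artery and vein cells), with an interval that includes 0 in artery cells, and Sox18 lies on different sides of 0 in general capillary cells and aerocytes.

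The classes were also compared with each other within each library. A direction is given here only where both libraries, each on its own, reached the limit. Aerocytes held less of 7 of 9 members than general capillary cells (Sox7, Sox17, Sox11, Erg, Fli1, Ets1 and Elk3), against 16.3% of 10481 genes, and more of 0 members, against 14.5%. Sox17 differed most, at 69.8 against 206 CPM in the control and 102 against 275 CPM in the metastatic library, log2 ratios of -1.56 (-1.67 to -1.45) and -1.43 (-1.53 to -1.34). Sox11 followed with -1.27 and -1.12, and Elk3 with -0.79 and -0.75. Ets2 was close to even, at -0.21 and -0.14. Sox18 was lower in control aerocytes, at -0.47 (-0.55 to -0.40), and level in metastatic ones, at 0.03 (-0.05 to 0.11).

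Artery cells held more Sox18 than general capillary cells, 264 CPM (220.3–313) against 199.6 CPM in the control and 275 CPM (231–326) against 179 CPM in the metastatic library. This 1 of 9 stood against 8.90% of 10092 genes, and it was not called with the mean over cells, where the control log2 ratio was 0.31 in place of 0.40. The artery cells held less of 4 members (Sox17, Sox11, Ets1 and Ets2), against 16.4% of genes. Sox11 was lowest there, at 14.2 CPM (5.7–29.2) and 32.9 CPM (18.8–53.4), with log2 ratios to general capillary cells of -3.41 (-4.73 to -2.37) and -2.78 (-3.59 to -2.08). These levels rest on 7 and 16 UMIs, and with free RNA subtracted Sox11 gave no artery value in the control library. Sox17, known for its part in arteries, was also lower, with log2 ratios of -0.60 (-0.97 to -0.25) and -0.46 (-0.77 to -0.18). In the control library it stood at 0.04 when classes were set at 2000 UMIs.

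In vein cells Fli1 was the 1 member called higher than in general capillary cells. Its level was 176 CPM (159–195) in control and 149 CPM (135–164) in metastatic vein cells, against 95.8 and 107 CPM in general capillary cells, log2 ratios of 0.88 (0.72 to 1.03) and 0.48 (0.32 to 0.63). This 1 of 9 higher member stood against 9.06% of 10220 genes. Lower in vein cells were 4 members (Sox17, Sox11, Ets1 and Ets2), against 13.5%. Ets2 had the largest difference, at 127 and 108 CPM against 405 and 368.5 CPM, log2 ratios of -1.67 (-1.85 to -1.50) and -1.77 (-1.94 to -1.60). Elk3 was nearly even between vein and general capillary cells, at 0.11 and 0.04, and Sox7 at 0.00 and -0.30. Within the pair of close relatives, Fli1 was thus highest in veins while Erg had its highest level in general capillary cells. In the control the Erg interval there (89.2 CPM, 85.9–92.5) overlapped those of vein (76.2 CPM, 65.1–88.6) and artery cells (62.9 CPM, 42.7–89.2). In the metastatic library that of artery cells overlapped it too (57.0–110 against 86.3–93.1 CPM).

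**Figure D4:**
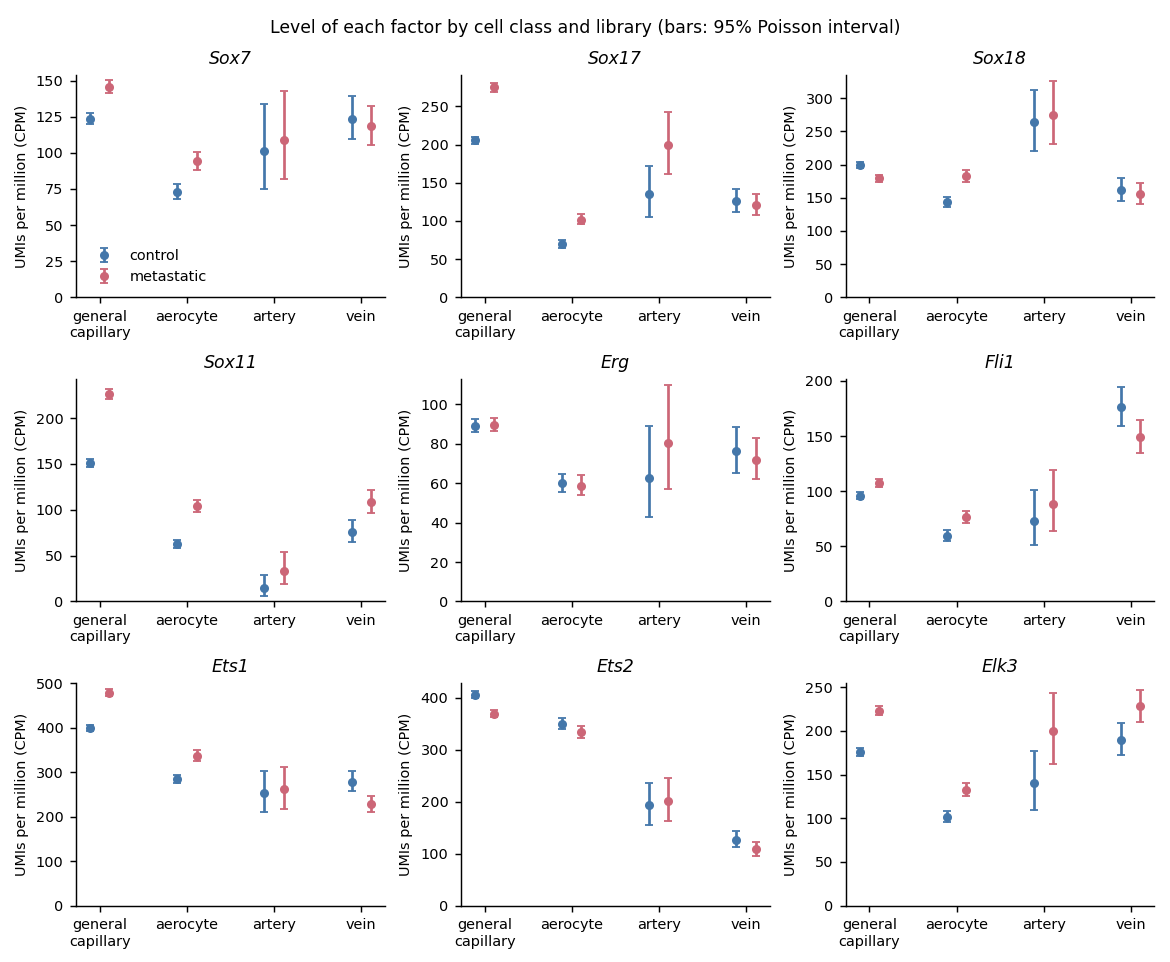
Level (CPM) of each factor in general capillary, aerocyte, artery and vein cells of the control and the metastatic library, with 95% Poisson intervals, each panel with its own axis from 0. Sox17, Sox11 and Ets1 are highest in general capillary cells (275, 226 and 479 CPM in the metastatic library), Fli1 in vein cells (176 and 149 CPM) and Sox18 in artery cells (264 and 275 CPM).

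Neighboring classes in the order of levels did not overlap for Ets2 in either library. How often this holds over all genes is not given, and the counting intervals narrow with more UMIs. For Sox17 the order ran from general capillary over artery and vein to aerocyte cells. Artery (105.3–173 CPM) and vein (111–141 CPM) overlapped in the control, as vein (108–135 CPM) and aerocyte cells (95.5–109 CPM) did in the metastatic library. For Ets2 it ran from general capillary over aerocyte and artery to vein cells. For Ets1, aerocyte (275–294 CPM), vein (257–302 CPM) and artery cells (211–302 CPM) overlapped in the control, below general capillary cells (392–406 CPM). Sox7 had its lowest level in aerocytes, where the interval overlapped that of artery cells in both libraries (68.3–78.4 and 75.3–134 CPM in the control). With classes at 2000 UMIs the control artery cells were below the aerocytes, with log2 ratios to general capillary cells of -1.58 and -1.09. Sox18, Sox11, Erg, Fli1 and Elk3 also had neighbors that overlapped in at least 1 library. Of the 9 members, 8 stood at 50 CPM or more in all 8 sums of class and library, with no share of all genes beside this count. Sox11 in artery cells was the exception.

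The study described a reactive capillary state (rCap), a set of capillary cells that carry marker genes of their own. A general capillary cell was placed in this state when at least 3 of 7 rCap genes of the study (Pim3, Bcl3, Inhbb, Osmr, Tmem252, Adamts9 and Scarb1) were detected at 2000 UMIs. These genes were picked by the study on data that include these libraries, and the state was read from the same cells, so the values are a description. It held 296 of 4947 control and 483 of 4461 metastatic cells. Fli1 was the 1 member that was higher in the state, at or beyond the limit, in both libraries, against 3.04% of 10041 genes, and 0 were lower in both, against 4.72%. It held 125 CPM in the state and 94.0 CPM outside it in the control library, a log2 ratio of 0.41 (0.22 to 0.60), and 143 and 102 CPM in the metastatic library, 0.48 (0.34 to 0.62). The ratio was below the limit in both libraries with 2 of 7 genes (0.31 and 0.25), and in the control library without cells that held markers of other cell types (0.30).

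Sox11 showed another pattern. In metastatic cells it held 147 CPM in the state and 237 CPM outside it, a log2 ratio of -0.69 (-0.82 to -0.56), whereas in control cells it held 141 and 152 CPM, -0.11 (-0.29 to 0.07). The metastatic over control ratio of Sox11 was therefore 0.64 (0.58 to 0.69) in cells outside the state and 0.06 (-0.16 to 0.27) in cells within it. With 2 of 7 genes the metastatic ratio was -0.23. Erg was also lower in the state in the metastatic library, at 69.7 against 92.0 CPM, -0.40 (-0.60 to -0.21), and at 82.3 against 89.5 CPM in the control, -0.12 (-0.36 to 0.11). With 2 of 7 genes its metastatic ratio was -0.17, within the limit.

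Sox17 was higher in the metastatic library both within and outside the state. It had log2 ratios of 0.55 (0.37 to 0.72) within it and 0.41 (0.36 to 0.46) outside, against 0.40 and 0.25 for Ets1 and 0.28 and 0.33 for Elk3. Epithelial genes were lower within the state, at 151 CPM against 1792 CPM in the control and 106 against 1112 CPM in the metastatic library. Vein markers summed to 46.3 CPM within and 17.04 CPM outside the state in the control, and to 14.6 and 17.7 CPM in the metastatic library. The part of the vein markers and the erythroid RNA in the member values was not tested.

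**Figure D5:**
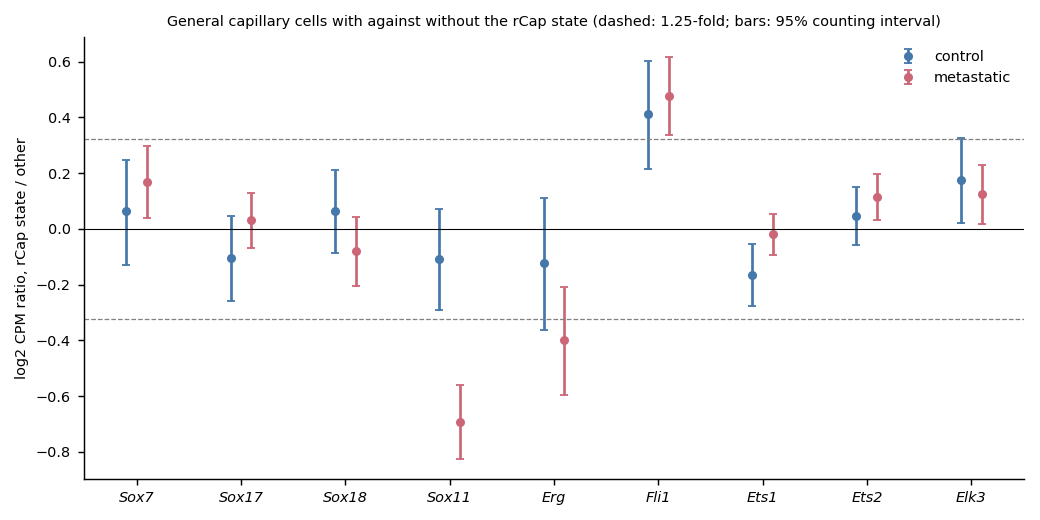
log2 CPM ratio of general capillary cells with the rCap state to those without it, for each factor in each library, with 95% counting intervals and dashed lines at the limit of 0.322 either way. Fli1 lies above the upper line in both libraries (0.41 and 0.48), while Sox11 lies at -0.69 in the metastatic and -0.11 in the control library.

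Among the other SOX genes Sox4, a SoxC relative of Sox11, was higher in metastatic general capillary cells. It held 89.5 and 188 CPM, a log2 ratio of 1.07 (1.00 to 1.13), more than any of the 9 members in these cells. It was 1 of 4 genes of this list with enough UMIs, and over all genes 10.5% were higher and 5.87% lower, the background for each list that follows. Sox13 (80.2 and 72.2 CPM) and Sox5 (5.30 and 4.49 CPM) were not called. Sox4 differed little with the rCap state, at 84.4 against 90.02 CPM in the control and 201 against 186 CPM in the metastatic library. Sox4 was found in 26.1% (23.8–28.5) of the metastatic cells with Sox11 and 23.7% (22.2–25.3) of those without.

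Of 12 other ETS genes with enough UMIs, 1 was higher and 0 were lower, with a median log2 ratio of 0.01. The higher one was Etv6, a repressor, at 30.4 and 48.3 CPM, 0.67 (0.55 to 0.79). The 3 with the highest levels, Elf2 (189.5 and 187 CPM), Elf1 (184 and 172 CPM) and Elk4 (101 and 102 CPM), stayed within the limit. Elk4 is a ternary complex factor like Elk3, and so is Elk1, which held 7.63 and 7.30 CPM.

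Transcription factors and cofactors that act with SOX and ETS proteins showed a median log2 ratio of 0.14 over 14 genes, with 3 higher and 1 lower. Lmo2, a bridging protein of blood and endothelial complexes, held 159 and 202 CPM (0.34), its partner Lyl1 held 7.48 and 11.03 CPM (0.56), and serum response factor, Srf, held 19.7 and 25.0 CPM (0.34). Gata2, an endothelial zinc finger factor, was lower, at 711 and 539 CPM, -0.40 (-0.43 to -0.37). Foxf1, a factor of the lung capillaries, and Mef2a stayed within the limit, at 388 and 353 CPM and at 297 and 331 CPM.

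Of 24 endothelial genes known as targets of these factors, 4 were higher and 0 lower, beside 10.5% and 5.87% of all genes, with a median of 0.06. Kdr, the main VEGF receptor, held 232 and 372 CPM (0.69), and Eng, a TGF-β coreceptor, held 692 and 913 CPM (0.40). Ecscr, a surface protein of endothelial cells, held 231 and 387 CPM (0.74), and Cxcr4, a chemokine receptor of sprouting cells, held 9.72 and 20.1 CPM (1.05). The 3 most abundant, Cldn5 (1750 and 1999.7 CPM), Clec14a (1711 and 1792 CPM) and Cdh5 (1588 and 1599 CPM), differed by at most 0.19.

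The targets of Srf and its ternary complex factors had a median of 0.06 over 11 genes, with 4 higher and 0 lower. Among the higher ones, Nr4a1 held 12.0 and 17.8 CPM (0.57) and Egr3 held 25.8 and 37.0 CPM (0.52), beside Srf itself. The abundant immediate early genes Fos (1749 and 1687 CPM), Egr1 (1359.9 and 1365 CPM) and Junb (1648 and 1789 CPM) were within the limit. Of 10 feedback genes of MAP kinase signaling, 2 were higher, Dusp5 (10.2 and 16.04 CPM, 0.66) and Spry4 (45.2 and 65.9 CPM, 0.54), and 1 was lower, Spry1 (111 and 77.1 CPM, -0.53), with a median of -0.03. The abundant Dusp1 (500.3 and 488 CPM) and Dusp6 (161 and 147 CPM) stayed within it.

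Genes with the most similar pattern were sought by Pearson's r of log2(CPM + 10) over 8 points, the 4 classes of both libraries, among 4676 genes. The points share libraries and depth, so these are descriptions. The 3 nearest genes had an r of 0.93 to 0.99. They were Tmem100, Adgrf5 and Naa15 for Ets2, Set, Nfix and Ndst1 for Elk3, and Prcp, Sptlc2 and Gm13889 for Fli1. For Sox17 they included Uaca and Srsf1, and they were for Sox7 Asap2, Sh3d19 and Gimap5, for Sox11 Cnot3, H2-Q7 and Stk4, and for Erg Rcn1, Zfp326 and Cnbp. Sox18 was nearest to Ktn1, Atrx and a transcript known by its clone name. For Ets1 they were H2-Q4, Arhgef15 and Kit, and Kit is a marker that set the general capillary class.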

How the data were processed

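Single-cell RNA-seq of PECAM1-sorted lung cells was deposited for 1 control and 1 metastatic library. Per the labels the authors used Cell Ranger, Seurat and mm10, and the deposited values are raw UMI counts of every listed barcode, neither filtered nor normalized (67929614 and 64733724 UMIs). The matrix headers name software version 3.1.0. Strand use in counting is not given in the sources used here.

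Counts were summed per class and library with Python 3.11.15, numpy 2.4.6 and scipy 1.17.1, and drawn with matplotlib 3.10.9. Levels have exact Poisson intervals, ratios exact conditional binomial intervals and shares Clopper-Pearson intervals, all at 95%. Cells were not treated as replicates, and with 1 library per group no test was made. Doublets were kept, and left out in 1 alternative that used scikit-learn 1.9.0. The ratios, their intervals and the rule for calls were tried on simulated counts of general capillary cells. Those counts held counting error only, so they say nothing on the spread between mice. A count of 0 was given a limit of 3 counts. Genes were named by these rules: all 9 members, list genes at or past the log2 limit of 0.322 with at least 100 UMIs, the 3 list genes with the highest level, and the 3 genes nearest in pattern. Elk1 and Cdk17 fall outside these rules and were chosen after their values were seen. Some genes that the rules name are not reported here. The members, lists and classes were chosen with earlier results of these data known.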

Additional observations from a re-analysis of the deposited data

Results flagged for a closer look

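The metastatic over control log2 ratio of Sox18 was 0.347 in aerocytes and -0.1564 in general capillary cells, with counting intervals on opposite sides of 0. For Fli1 it was 0.1597 in general capillary cells and 0.354 in aerocytes, but -0.2418 in vein cells. For Ets1 it was 0.262 and 0.2444 in these capillary classes and -0.2926 in vein cells. Each group is 1 library, so these differences between classes were not tested.

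Barcodes with at least 300 but fewer than 1000 genes were left out of the comparisons. Sox17 was found there at 108.1 CPM in the metastatic and 63.95 CPM in the control library, and Sox7 at 51.7 and 39.3 CPM.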

How the results depend on the processing

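Of 395 values that answer a comparison, over all alternatives, 374 stayed and 21 moved, and of 1798 values of single genes, 1725 stayed, 70 moved and 3 reversed. A count stayed when within 1.5 times the one reported, a ratio or share when within its counting interval, and a list median when within the median counting half-width of its genes; a reversed ratio changed sign although its interval excluded 0. The cause of these moves was not tested beyond what each alternative leaves out. The member counts below have no share of all genes at the same setting beside them. They show only how the calls depend on the settings. With a limit of 1.5-fold in place of 0.322 on the log2 scale, the members higher in the metastatic library were 0 in general capillary cells, 1 in aerocytes, 0 in artery cells and 0 in vein cells. With that fold 4 members were lower in aerocytes than in general capillary cells, and 0 were higher in artery cells, 0 in vein cells and 0 in the rCap state. Members higher in metastatic artery cells were 4 with a minimum of 20 UMIs, 4 with no minimum and 0 with classes set at 2000 UMIs. There Sox17 was at -0.78 and Elk3 at -0.24, and Sox17 in artery over general capillary cells of the control library at 0.038. Members higher in artery than general capillary cells were 0 with the mean over cells. Members higher in metastatic vein cells were 2 with classes at 2000 UMIs, 2 without cells that held RNA of other cell types and 2 with the mean over cells. Members higher in the rCap state were 0 without those cells and 0 with 2 of 7 rCap genes. Members at 50 CPM or more in all 8 sums were 5 with classes at 2000 UMIs. The median of the other SOX genes was 0.62 with no minimum, and the median log2 ratio of SRF and ternary complex factor targets in general capillary cells was 0.025 with classes at 2000 UMIs and 0.012 with free RNA subtracted. Leaving out cells with under 2 endothelial markers, or with 2 lymphatic markers, was chosen after seeing the data. With free RNA subtracted, Sox11 gave no artery value in the control library. No paired analysis was possible because each group is 1 library, and for the same reason no library could be left out.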

Other observations

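Members were also found outside the classes. In cells that reached no class, Sox17 stood at 103 CPM in control cells and 127 CPM in metastatic cells, Sox11 at 25.0 and 42.0 CPM, and Ets1 at 338 and 395 CPM. In barcodes with 11 to 50 UMIs, which hold mostly free RNA, Sox11 stood at 108 and 103 CPM, Sox17 at 47.2 and 39.8 CPM, and Ets1 at 227 and 211 CPM. In barcodes with at least 300 but fewer than 1000 genes Erg stood at 141 and 125 CPM, above its level in each of the 4 classes. Free RNA was estimated at 19.2% of UMIs in control and 14.8% in metastatic general capillary cells.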
